A study of Mus musculus with 8 samples.

Results

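The proteasome subunits described here are 36 genes that encode the parts of the proteasome. They comprise the 7 alpha ring genes Psma1 to Psma7, the 10 beta genes Psmb1 to Psmb10, the 6 ATPase genes Psmc1 to Psmc6, 11 non-ATPase genes of the 19S regulatory particle (Psmd) and the 11S activator genes Psme1 and Psme2. Members were the probe sets of the Affymetrix Mouse430_2 array whose annotation carries the single Entrez identifier of one of these genes. All 36 genes had at least 1 such probe set and together they had 67, out of 45037 non-control probe sets. Of the 45037, 37579 carried a single identifier, and these represent 20665 identifiers. A gene was represented by its probe set with the highest mean log2 signal over the 8 arrays, and 19 genes had only 1 to choose from.

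The study compared regulatory T cells, which restrain other immune cells and depend on the transcription factor Foxp3, sorted as CD4+CD25+ cells from untreated mice aged 14 to 17 weeks. GFP-RFP+ cells, called peripherally induced in the labels, and GFP+RFP+ cells, called thymically induced, came from both lymph nodes and spleen, so that there were 4 groups. Each group was 1 pool of organs of 20 mice, of which 50 ng of RNA went into labelling, and was read on 2 arrays termed technical replicates. The sources used here do not give the strain or what drives GFP and RFP. Populations were thus compared once per organ, and variation from mouse to mouse or sort to sort is not measured by these arrays.

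The proteasome is the protease of the cytosol and nucleus that degrades proteins tagged with ubiquitin. Its 20S core is a barrel of outer alpha rings, which gate entry, and inner beta rings, in which Psmb5, Psmb6 and Psmb7 carry the constitutive catalytic sites. The 19S particle recognises, unfolds and feeds in substrates by means of its ATPase ring. In lymphocytes and after interferon-gamma, Psmb8, Psmb9 and Psmb10 take the places of Psmb5, Psmb6 and Psmb7 to form the immunoproteasome, which favours peptides that suit MHC class I, and the 11S activator of Psme1 and Psme2 can cap the core in place of the 19S particle.

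Because the catalytic subunits are the pairs that exchange, the 250 bases before the RefSeq start of 1 constitutive gene, Psmb5, and of the immunoproteasome genes Psmb8, Psmb9 and Psmb10 are shown 5′ to 3′ on the gene's strand (GRCm38.p6). Psmb5 lies on the minus strand (window chr14:54617996-54618245), Psmb8 on the plus strand (chr17:34197945-34198194), Psmb9 on the minus strand (chr17:34187331-34187580) and Psmb10 on the minus strand (chr8:105938393-105938642). Capitals mark matches, on either strand, to an antioxidant response element TGACNNNGC, which the factors Nfe2l1 and Nfe2l2 bind, a STAT site TTCNNNGAA, an interferon response element (GAAA, any 2 bases, GAAA), or the CCAAT box.
Psmb5: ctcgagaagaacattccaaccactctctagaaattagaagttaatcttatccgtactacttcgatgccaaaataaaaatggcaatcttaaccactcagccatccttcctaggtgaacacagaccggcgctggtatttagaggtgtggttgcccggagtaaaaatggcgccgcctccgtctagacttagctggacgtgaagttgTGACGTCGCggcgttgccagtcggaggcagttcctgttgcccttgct
Psmb8: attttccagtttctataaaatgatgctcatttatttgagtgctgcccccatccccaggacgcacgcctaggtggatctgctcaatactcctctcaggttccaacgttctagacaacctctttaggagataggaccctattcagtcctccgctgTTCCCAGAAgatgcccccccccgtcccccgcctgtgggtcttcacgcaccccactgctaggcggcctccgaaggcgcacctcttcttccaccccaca
Psmb9: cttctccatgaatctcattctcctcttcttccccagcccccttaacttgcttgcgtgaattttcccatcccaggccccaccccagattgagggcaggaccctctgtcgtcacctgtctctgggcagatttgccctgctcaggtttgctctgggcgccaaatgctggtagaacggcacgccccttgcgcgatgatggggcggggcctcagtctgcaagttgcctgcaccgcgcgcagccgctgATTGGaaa
Psmb10: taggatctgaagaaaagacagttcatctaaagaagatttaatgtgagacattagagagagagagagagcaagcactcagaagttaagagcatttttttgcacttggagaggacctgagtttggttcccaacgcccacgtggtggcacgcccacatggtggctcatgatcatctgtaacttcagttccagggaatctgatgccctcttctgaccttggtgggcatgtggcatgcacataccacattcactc
Psmb5 held 1 match to the antioxidant response element, Psmb8 held 1 match to the STAT site, Psmb9 held 1 CCAAT box, and these letters were not found in the Psmb10 window. Of 32851 such windows in the RefSeq table, 10.2% held the antioxidant response element, 7.02% the STAT site, 2.98% the interferon element and 33.8% the CCAAT box. The table held 33 windows of 30 member genes. Of these, 4 held the antioxidant response element, 1 the STAT site, 2 the interferon element and 11 the CCAAT box, which are 12.1%, 3.03%, 6.06% and 33.3% of them. A match is a string of letters and was not tested for binding.

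Every subunit gene was detected on every array. The representative probe sets were called present in all 288 of 288 calls, where the detection calls come from 8 columns that name no sample and were assigned to none. All non-control probe sets together were present in 55.1% of calls, and 38.8% of them were present on all 8 arrays. The other 31 probe sets of these genes were present in 78.6% of calls, and 2 of them, 1 of Psmd4 and 1 of Psmd11, were present on no array. The array medians over all non-control probe sets lay between 24.97 and 27.0 signal units, and technical replicates correlated across probe sets at r between 0.966 and 0.971. The spleen GFP-RFP+ pair was the least alike, with a median absolute log2 difference of 0.157 over probe sets present on all arrays, while the other pairs had 0.0814 to 0.0880. The array of that pair labelled technical replicate 2 gave the lowest value of the 8 for 18 of the 36 members, and its median member deviation was -0.087 on the log2 scale.

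Levels are log2 of the linear dChip signal. Probe affinity differs between probe sets, so these levels give no order of the genes' transcripts. The mean log2 signal of the members' probe sets ran from 6.52 (Psma3, 1 probe set) to 11.39 (Psme2), with a median of 9.96. The SD of log2 signal over the 8 arrays had a median of 0.0810 among the members and ran from 0.0359 for Psma7, an alpha ring gene, to 0.192 for Psmd7, a lid subunit of the 19S particle. Over probe sets present on all 8 arrays the median SD was 0.169, and over all non-control probe sets, many of which are dim, it was 0.352. Those present on all 8 arrays were also dimmer than the members, with a median level of 7.66, and had a median technical SD of 0.103. No comparison at equal level was made. The median SD between technical replicates of the members was 0.0714, close to their SD over all arrays.

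**Figure D1:**
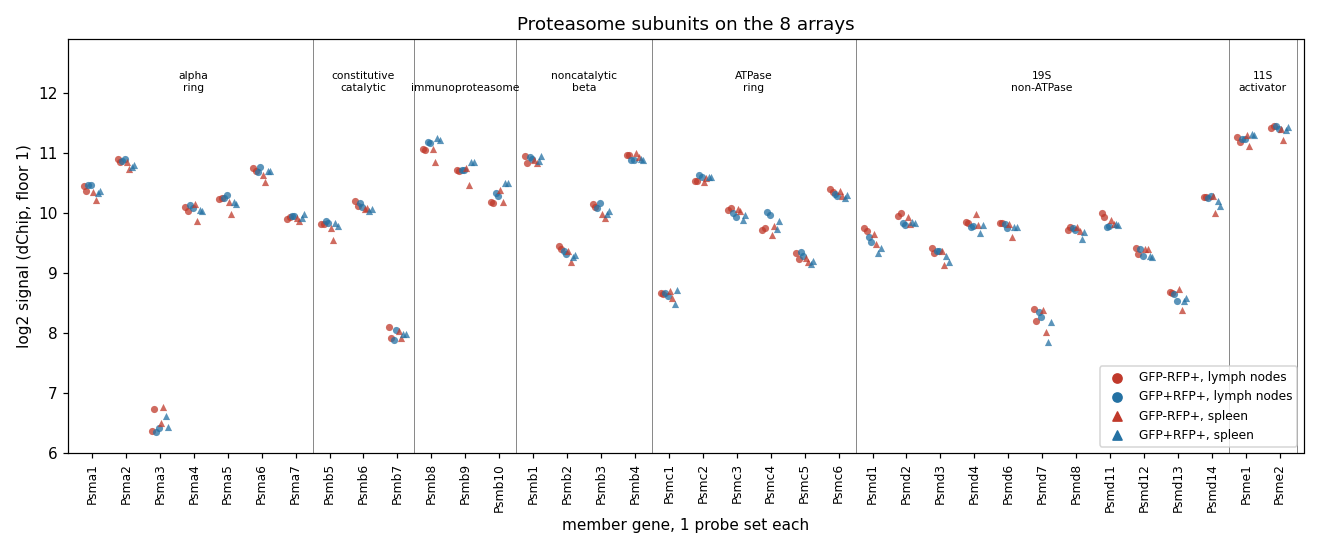
Log2 dChip signal (vertical axis) of the representative probe set of each of the 36 subunit genes (horizontal axis) on the 8 arrays; each point is 1 array, with colour for the population and shape for the organ. The 8 points of a gene lie close together, with an SD of 0.0359 for Psma7 up to 0.192 for Psmd7.

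To ask whether the subunits differ between peripherally and thymically induced cells, GFP-RFP+ was compared with GFP+RFP+. The core and the 19S particle were nearly level between the populations, with folds from 0.872 for Psmb8 to 1.13 for Psmd1 and a median log2 difference over the 36 members of 0.00095, beside 0.0095 over all non-control probe sets. Of the members, 18 lay below 0 and 18 above it, beside 48.9% of all probe sets below 0, and 15 lay below 0 in both organs, beside 31.1%. The limma fit on the 4 pools, with population and organ as terms and technical replicates averaged, called 0 of 36 members at a Benjamini-Hochberg adjusted p under 0.05, and it called 0% of all probe sets, so it separated nothing on this array. At an unadjusted p under 0.05 it held 7282 of 45037 probe sets and 0 of the 36 members. By limma on the 8 arrays as if they were independent, 10.4% of all probe sets and 19.5% of those present on all arrays passed. Again 0 of the 36 representative probe sets of the members did. Without 1 array in turn that fit called 2350 to 3960 probe sets in place of 4692, fewer by over 1.5 times for 7 of the 8 arrays, and 0 members each time. The lowest adjusted p of a member in that fit was 0.176, for Psmd1. That the members missed the threshold does not show that they are equal in the populations. Of the members' other 31 probe sets 1 passed, a dim one of Psmb1 whose probes are shared with other sequences and which was named after its values were seen (-0.56, limma adjusted p = 0.0267 on the 8 arrays), while the bright probe set of Psmb1 differed by -0.035. The p-values on the 8 arrays measure the spread between technical replicates and the change of the population difference between organs. They do not measure spread between mice.

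The direction of such small differences depended on the scaling of the arrays. After quantile normalization 30 of the 36 members lay below 0, with a median of -0.088, and after centring each array on its median 21 did, with a median of -0.022. Quantile normalization moved the median of all probe sets by -0.051.

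Within the core, the immunoproteasome genes had 1 sign. Psmb8, Psmb9 and Psmb10 had negative differences, GFP-RFP+ minus GFP+RFP+, in both organs, with a median of -0.18 on the log2 scale, and none of them passed the test. Averaged over organs the 3 differences stayed negative under each scaling tried and without each array in turn (medians -0.13 to -0.26). Psmb8, the inducible chymotrypsin-like subunit, read 11.06 and 11.04 on the lymph node GFP-RFP+ arrays, 11.18 and 11.17 on the lymph node GFP+RFP+ arrays, 11.07 and 10.85 on the spleen GFP-RFP+ arrays, and 11.24 and 11.22 on the spleen GFP+RFP+ arrays. All 4 GFP-RFP+ arrays lay below all 4 GFP+RFP+ arrays. The difference was -0.20 ± 0.12 (log2, SE, n = 2 pools per population, 0.872-fold), with a limma adjusted p of 0.495. Here and below the SE is that of the fit on the 4 pools. Limma moderates it towards the variance of all probe sets, so it is not a gene's own spread or its technical spread. With a variance prior that follows intensity, limma called 6639 of 45037 probe sets and 1 of the 36 members, Psmb8 (adjusted p = 0.0371). By limma on the 8 arrays its adjusted p was 0.190. A second, dimmer probe set of Psmb8 ran from 5.95 to 6.99, its populations overlapped, and its difference was -0.47.

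Psmb10, the inducible trypsin-like subunit, read 10.18 and 10.16 on the lymph node GFP-RFP+ arrays against 10.33 and 10.28 on the GFP+RFP+ arrays, and 10.38 and 10.18 on the spleen GFP-RFP+ arrays against 10.50 and 10.50. The populations did not overlap within either organ but did overlap across organs. The share of all probe sets that separate so within each organ was not counted, here or for Psmd1 below. Its population difference was -0.18 ± 0.11 (log2, SE, 0.884-fold, limma adjusted p = 0.506). Psmb9, which takes the place of Psmb6, read 10.71, 10.69, 10.71 and 10.71 on the lymph node arrays, the GFP-RFP+ pair first, and 10.74, 10.47, 10.84 and 10.85 on the spleen arrays in the same order. Its difference was -0.24 in spleen and -0.01 in lymph nodes, and these were not tested against each other. The low spleen value was on the array of technical replicate 2.

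Of the constitutive partners 1 of 3 lay below 0, and 3 of 3 did after quantile normalization. Psmb5, which Psmb8 replaces, read 9.81 and 9.82 against 9.87 and 9.84 in lymph nodes and 9.74 and 9.55 against 9.83 and 9.77 in spleen, GFP-RFP+ first, a difference of -0.10 ± 0.115 (log2, SE). Psmb6, which Psmb9 replaces, read 10.20 and 10.10 against 10.17 and 10.10 in lymph nodes and 10.07 and 10.08 against 10.02 and 10.06 in spleen. Psmb7, which Psmb10 replaces, read 8.10 and 7.91 against 7.88 and 8.04 in lymph nodes and 8.03 and 7.92 against 7.98 and 7.97 in spleen. Psmb6 and Psmb7 differed between populations by 0.03 and 0.02 on the log2 scale, and after quantile normalization by -0.065 and -0.058.

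The balance within an array, the mean log2 signal of Psmb8, Psmb9 and Psmb10 minus that of Psmb5, Psmb6 and Psmb7, does not depend on the scaling of the array by a constant. It read 1.28 and 1.35 on the lymph node GFP-RFP+ arrays, 1.43 and 1.39 on the lymph node GFP+RFP+ arrays, 1.45 and 1.31 on the spleen GFP-RFP+ arrays and 1.58 and 1.59 on the spleen GFP+RFP+ arrays. Only differences of this quantity between arrays can be read, since its level includes probe affinity. Within each organ both GFP-RFP+ arrays lay below both GFP+RFP+ arrays, with differences of -0.10 in lymph nodes and -0.20 in spleen. The technical SD of the balance was 0.0580 over 4 pairs. In spleen the balance was higher than in lymph nodes by 0.12. No test was made of this score.

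**Figure D2:**
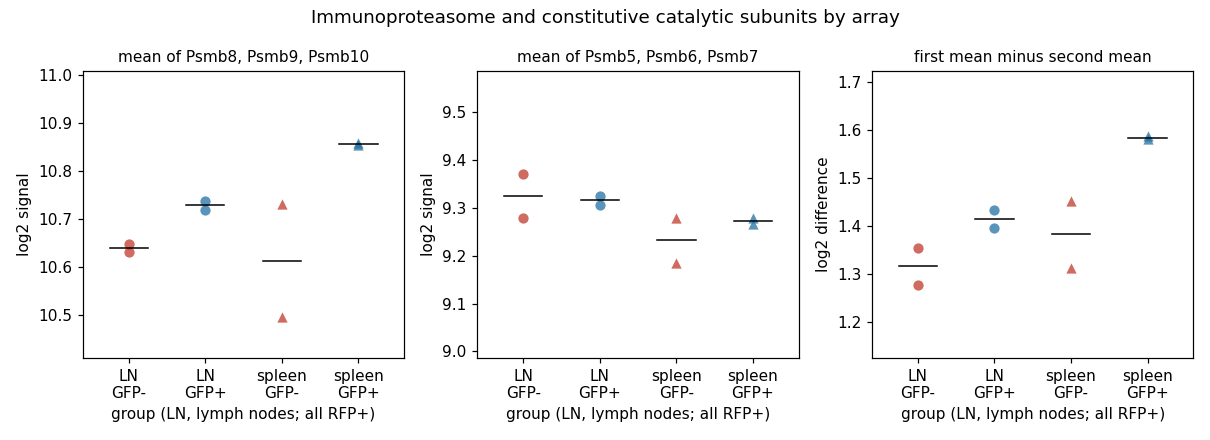
Mean log2 signal of the immunoproteasome subunits (left), of the constitutive catalytic subunits (middle), and the first minus the second (right), by group on the horizontal axis; each point is 1 array and the line is the mean of the 2 technical replicates. The difference on the right lies between 1.28 and 1.45 on the GFP-RFP+ arrays and between 1.39 and 1.59 on the GFP+RFP+ arrays.

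The 11S activator genes overlapped between populations. Psme1 read 11.26 and 11.17 against 11.23 and 11.24 in lymph nodes and 11.30 and 11.11 against 11.31 and 11.30 in spleen, GFP-RFP+ first. Psme2 read 11.41 and 11.44 against 11.45 and 11.40 in lymph nodes and 11.39 and 11.22 against 11.38 and 11.44 in spleen. The differences were -0.06 and -0.05 on the log2 scale, and in spleen the lowest values of both were on the GFP-RFP+ array of technical replicate 2.

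In the 19S particle, 9 of the 11 non-ATPase genes had positive differences, with a median of 0.08 on the log2 scale, and 4 of the 11 had after quantile normalization. Psmd1, the large scaffold subunit of the base, read 9.75 and 9.70 against 9.59 and 9.52 in lymph nodes and 9.64 and 9.48 against 9.32 and 9.41 in spleen, GFP-RFP+ first. Within each organ both GFP-RFP+ arrays lay above both GFP+RFP+ arrays, and the difference was 0.18 ± 0.109 (log2, SE, 1.13-fold), with a limma adjusted p of 0.493, while its dimmer probe set differed by 0.033. Psmd11, a lid subunit, read 10.002 and 9.93 against 9.76 and 9.77 in lymph nodes and 9.88 and 9.82 against 9.81 and 9.79 in spleen. All 4 of its GFP-RFP+ arrays lay above all 4 GFP+RFP+ arrays, with a difference of 0.12, and of its other probe sets present on all arrays 1 gave 0.19 and 1 gave -0.07.

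Among the ATPase genes, Psmc4 read 9.71 and 9.75 against 10.01 and 9.97 in lymph nodes and 9.62 and 9.78 against 9.73 and 9.87 in spleen, GFP-RFP+ first. Its difference was -0.26 in lymph nodes and -0.095 in spleen, where the pairs overlapped, and its other probe set had a difference over both organs of 0.008. In the alpha ring, 6 of 7 genes had negative differences by representative probe sets, with a median of -0.048, and Psma3 was the exception. The representative probe set of Psma1 differed by -0.064, and another present on all 8 arrays by 0.39. Its probe sets present on 6 and 5 arrays differed by -0.069 and -0.16. Psma3 read 6.37 and 6.73 against 6.34 and 6.41 in lymph nodes and 6.501 and 6.76 against 6.61 and 6.43 in spleen. Its technical spread was wide, with an SD of 0.171, and its difference was 0.14 ± 0.11 (log2, SE). The 4 structural beta genes without a catalytic site, Psmb1 to Psmb4, lay between -0.035 and 0.078.

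Over all members, 2 genes, Psmb8 and the ATPase gene Psmc2, had all 4 GFP-RFP+ arrays below all 4 GFP+RFP+ arrays, and 3 genes, Psmb4, Psmc3 and Psmd11, had them above. The same held for 7.42% and 12% of all non-control probe sets. Among probe sets present on all 8 arrays, as those of the members were, it held for 13.1% and 23.8%. Psmc2 was represented by a probe set whose name marks probes shared with other sequences. The 14 genes with several probe sets present on all arrays included 7 whose probe sets had opposite signs. Psmb4, Psmc2 and Psmd11 were among the 7. The other probe set of Psmb4 differed by -0.157 where the representative one differed by 0.078, and that of Psmc2 by 0.041 where the representative one differed by -0.064.

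**Figure D3:**
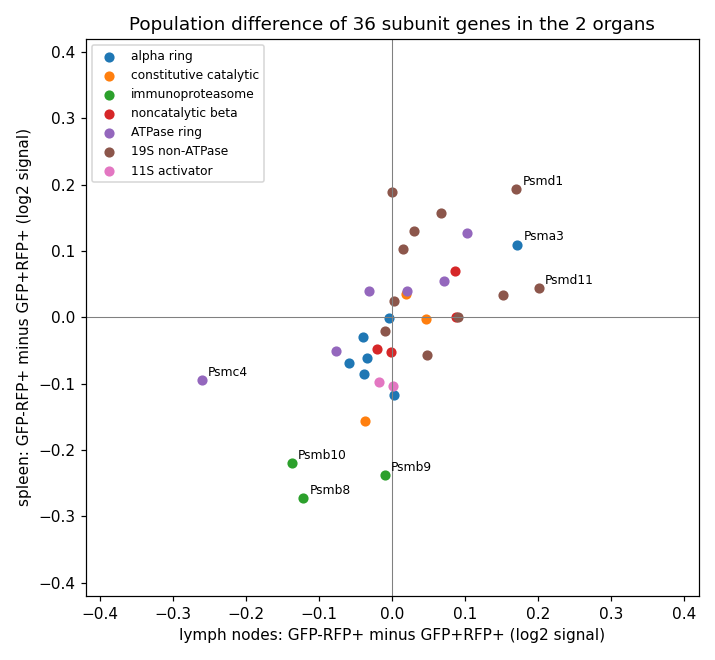
GFP-RFP+ minus GFP+RFP+ log2 signal in lymph nodes (horizontal axis) and in spleen (vertical axis) for the 36 subunit genes; each point is 1 gene, coloured by its place in the proteasome. Psmb8, Psmb9 and Psmb10 lie in the lower part, with spleen differences of -0.27, -0.24 and -0.22.

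The second comparison set spleen against lymph nodes. The limma fit on the 4 pools called 0 of 36 members and 0% of all probe sets, with 3620 probe sets and 0 members at an unadjusted p under 0.05. Limma on the 8 arrays called 0.719% of all probe sets, 0.113% lower and 0.606% higher in spleen. It called 0 of the 36 members, whose lowest adjusted p was 0.492. Of the 36 members, 31 lay below 0, where 47.8% of all probe sets did, with a median log2 difference of -0.064 beside 0.011 over all probe sets. Without the second spleen GFP-RFP+ array, which was lowest for 18 members, 25 of the 36 lay below 0 and the median was -0.022, and with all probe sets of a gene averaged the median was -0.029. Psma2, Psma5, Psmb3 and Psmb6 had all 4 spleen arrays below all 4 lymph node arrays. These are 4 of 36 members, beside 1.88% of all probe sets and 2.85% of those present on all 8 arrays. No member had all 4 spleen arrays above, beside 2.84% of all probe sets.

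Psmb3, a structural beta gene, read 10.14, 10.10, 10.09 and 10.16 in lymph nodes and 9.98, 9.91, 9.97 and 10.03 in spleen, a difference of -0.15 ± 0.11 (log2, SE, limma adjusted p = 0.814). Psmd7 read 8.40, 8.20, 8.34 and 8.26 in lymph nodes and 8.37, 8.02, 7.84 and 8.17 in spleen, so its organs overlapped. Its difference was -0.20 ± 0.124 (log2, SE), the lowest of the members. Psmd1 differed by -0.17 with its bright probe set, by 0.16 with its dimmer one, which was also present on all 8 arrays, and by -0.0058 with both averaged. Psmb10 differed by 0.15 and Psma3 by 0.11, the highest of the members. With all probe sets of a gene averaged, the difference of Psmd7 was 0.085 instead. For Psmb9 and Psme1 the differences of 0.02 and 0.03 turned below 0 when arrays were centred on their medians.

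Summed markers of myeloid, erythroid and B cells were higher in spleen, while those of NK and CD8 T cells overlapped between organs. Some probe sets of Cd8a moved with the population. The summed signal of 4 myeloid markers was 111 to 136 on the lymph node arrays and 774 to 1469 on the spleen arrays, and that of 3 erythroid genes was 16.5 to 24.9 and 177 to 475. The 4 B cell markers summed to 140 to 215 in lymph nodes and 342 to 553 in spleen, while Pax5 was present on no array. NK markers summed to 35.4 to 56.6 in lymph nodes and 42.5 to 54.5 in spleen, and CD8 T cell markers to 139.7 to 191 and 135 to 149.8. Csf1r, the receptor of macrophages, was 5.02 higher in spleen on the log2 scale and Alas2, of red cell haem synthesis, was 6.28 higher (Hba-a1, present on no array, differed by -0.64), with limma adjusted p of 0.000370 and 0.00117 on the 8 arrays. Ms4a1 and Lyz2 passed that test too, at 3.36 and 2.19, in 3 and 2 of the 8 fits without 1 array (highest adjusted p = 0.0764 and 0.101, both without the second spleen GFP+RFP+ array). Between populations, 3 further probe sets of Cd8a were lower in GFP-RFP+ cells in that fit, at -2.33, -0.91 and -2.64, while the representative ones of Cd8a and Cd8b1 differed by -0.11 and -0.030. The part of these cells in the subunits' organ and population differences was not tested, and in bulk samples fewer cells of a type and less RNA per cell cannot be told apart. The sorted cells carried the markers of their label, with Foxp3, Il2ra, Cd4, Ctla4, Ikzf2 and Tnfrsf18 present on all 8 arrays and Cd3e on 7. Foxp3 was lower in GFP-RFP+ cells, at 9.95, 10.08, 9.97 and 9.82 against 10.44, 10.58, 10.63 and 10.48 (limma on the 8 arrays, adjusted p = 0.0120). Over the 7 markers of regulatory T cells, limma on the 8 arrays called Foxp3 and Il2ra lower and Ctla4 and Cd4 higher in GFP-RFP+ cells, and their summed signal did not overlap between populations (14294 to 15161 against 11426 to 12076).

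Other genes of the pathway were described from 6 lists. Of 40 listed genes, 37 had a probe set with a single identifier; Paaf1, Nlrc5 and Ubb did not. The fit on the 4 pools called none of them, while limma on the 8 arrays called the representative probe sets of 3 between populations, 1 lower and 2 higher in GFP-RFP+ cells, beside 3.14% and 7.28% of all probe sets. Of their 48 other probe sets, 7 passed that fit, all higher in GFP-RFP+ cells, and are named after their values were seen. They are 2 of Calr and 1 each of Rad23b, Psmd9, Nfe2l2, Ubqln1 and Ubqln2. Of the assembly chaperones, which help build the 20S core and the 19S base, 7 of 8 had negative differences, beside 48.9% of all probe sets. Their median was -0.20, and limma on the 8 arrays called 1. Psmg3, a chaperone of the alpha ring, read 7.07 and 7.26 against 7.64 and 7.73 in lymph nodes and 7.01 and 7.09 against 7.55 and 7.67 in spleen, GFP-RFP+ first. It was lower by -0.54 (log2, 0.689-fold), and limma called it on the 8 arrays (adjusted p = 0.00986) and in all 8 fits without 1 array. A second, dimmer probe set of Psmg3, present on 7 arrays, went the other way. It differed by 0.20, with 0.79 in lymph nodes and -0.39 in spleen. Among the other chaperones, Psmg2 and Psmd10 also had all 4 GFP-RFP+ arrays below all 4 GFP+RFP+ arrays, with differences of -0.19 and -0.24. The same held for 7.42% of all non-control probe sets and for 13.1% of those present on all 8 arrays. Psmd9, a chaperone of the base, was the 1 gene of the list above 0, at 0.073 with its representative probe set and 0.75 with the one that passed.

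Of the regulators, Irf1, an interferon-induced activator of the immunoproteasome genes, was higher in GFP-RFP+ cells. It read 11.79 and 11.73 against 11.09 and 11.10 in lymph nodes and 11.78 and 11.79 against 11.34 and 11.27 in spleen, 1.49-fold, and was called by limma on the 8 arrays (adjusted p = 0.00626). Nfe2l1, which drives the constitutive genes when proteasome activity falls, differed by 0.014. Nfe2l2, a related factor, differed by -0.11 with its representative probe set and by 2.89 with a dim one present on 6 arrays (limma on the 8 arrays, adjusted p = 0.00101).

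By representative probe sets, the genes that load peptides on MHC class I were called in neither direction. Of them 5 of 8 lay below 0, beside 48.9% of all probe sets. All 4 GFP-RFP+ arrays lay below all 4 GFP+RFP+ arrays for 1 of the 8 and above them for 3. The shares were 7.42% and 12% over all non-control probe sets, and 13.1% and 23.8% over those present on all 8 arrays. The transporter gene Tap1 was the lowest at -0.26 (9.97, 10.08, 10.17 and 10.11 on the GFP-RFP+ arrays, all below 10.18, 10.20, 10.49 and 10.51 on the GFP+RFP+ arrays), and Calr, a chaperone of the endoplasmic reticulum, was the highest at 0.27 (limma on the 8 arrays, adjusted p = 0.0578). The other 2 probe sets of Calr passed that fit, at 0.31 and 0.29 (adjusted p = 0.0284 and 0.0451). Among 6 genes of ubiquitin supply and delivery, limma on the 8 arrays called Rad23b, a shuttle that brings ubiquitinated proteins to the proteasome, higher in GFP-RFP+ cells. Of the 4 probe sets of Rad23b, 1 other passed too, at 0.41 on the log2 scale. Ubqln1 and Ubqln2, also shuttles, each had 1 probe set that passed, at 0.63 and 0.98, where their representative ones differed by -0.073 and 0.11, and that of Ubqln2 was present on 1 array. Rad23b was 1.31-fold higher (limma adjusted p = 0.0154) and passed in 4 of the 8 fits without 1 array (highest adjusted p = 0.0616, without the second spleen GFP+RFP+ array). The list of receptors and deubiquitinases of the 19S particle also holds Sem1, a lid subunit, and Ube3c, a ubiquitin ligase. Its 5 genes lay between -0.0022 and 0.12. Among 5 other activators, inhibitors and restricted subunits, Psmb11 of the thymic cortex was present on no array and Psma8 of the testis on 2, and none was called. Between organs none of the 37 representative probe sets was called in either fit.

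**Figure D4:**
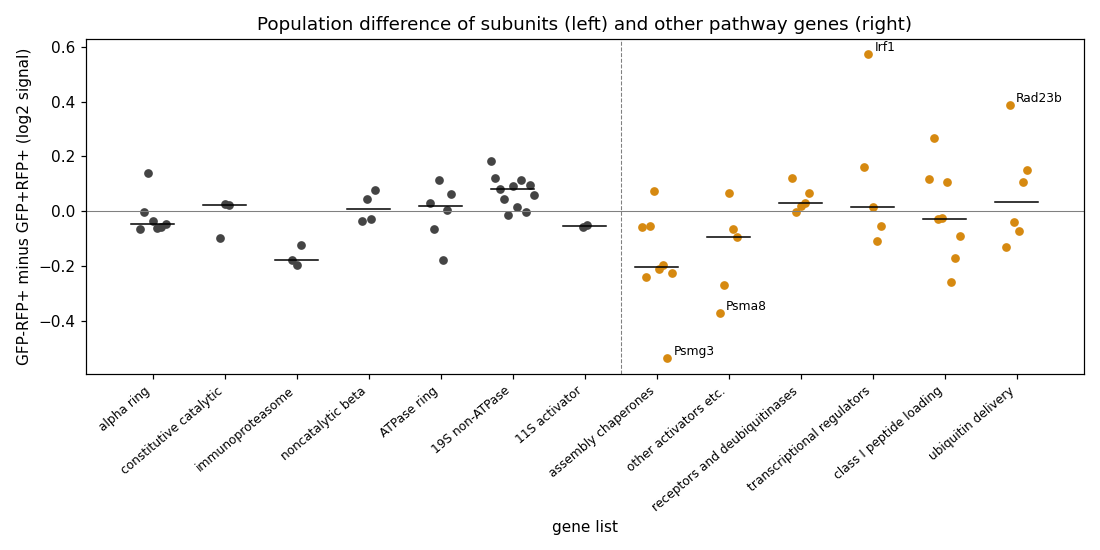
GFP-RFP+ minus GFP+RFP+ log2 signal (vertical axis) of each gene by list (horizontal axis), subunits left of the dashed line and other pathway genes right of it; each point is 1 gene and each line a list's median. The subunits lie between -0.20 and 0.18, while Irf1 lies at 0.57 and Psmg3 at -0.54.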

How the data were processed

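Per the file headers, the deposited intensity values were made by dChip's model-based method with a named baseline array and were not log transformed. The submitters' processing notes name RMA. Each of the 8 columns of the value table, whose names are the samples' accessions, equalled 1 signal column of the dChip table at all 45101 probe sets. Groups were taken from those accessions and the labels. The dChip signal and call columns name no sample, so the detection calls were used without groups.

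Intensities were floored at 1 (10 values lay below) and put on the log2 scale. The 64 control probe sets were left out. Probe sets were named by the Entrez identifier in the dChip table, through a RefSeq gene table of GRCm38.p6. Technical replicates were averaged, and limma 3.58.1 (R 4.3.3) was fitted to the 4 pools with population and organ, leaving 1 residual degree of freedom, with Benjamini-Hochberg adjustment over 45037 probe sets. On simulated data this fit also recovered none of the changed probe sets. A limma fit of the 8 arrays as if independent is given beside it. The simulated arrays held technical spread only and no spread between pools, so they do not show that the 8 arrays are independent. The residual of the 8-array fit holds the technical spread and the change of the population difference between organs, and no spread between mice. The number of arrays limits the precision. Genes described with all values were the catalytic and 11S genes and the 3 members of largest difference in each direction and comparison with 1 sign in both repeats. The members and gene lists were chosen with earlier results of these data known. Results for 2 further pathway genes are not reported here.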

Additional observations from a re-analysis of the deposited data

How the results depend on the processing

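The averaged fit called no probe set, so settings could only add calls. Between populations and between organs, limma called 4692 and 324 probe sets on the 8 arrays, 6639 and 731 with an intensity trend, 4478 and 151 among probe sets above the median level, 3591 and 185 with the technical replicate number as a replicate block, and 8291 and 787 with the pool as a random block (estimated correlation -0.289); the cause was not tested. The 8-array fits without 1 array, added after seeing the data, called 2350 to 3960 and 133 to 220. Of the members' representative probe sets, the trend called 1 between populations (Psmb8), and no other setting called any in either comparison. The replicate number gave no pairing of samples (same-numbered arrays' deviations correlated at r from -0.103 to 0.133), and no fit with it called a member. The median member difference moved to -0.0879 between populations under quantile normalization and, between organs, from -0.064 to -0.118 under median centring, -0.029 with probe sets averaged and -0.022 without the second spleen GFP-RFP+ array. The balance's range over arrays, 0.311, moved to 0.378 with all probe sets of a gene averaged, and the share of calls present from 100% to 90.1% with all their probe sets.

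Of all members, 30 lay below 0 between populations under quantile normalization in place of 18. Among those described with all values, these signs turned. Between populations, Psmb6 became -0.065 and Psmb7 -0.058 under quantile normalization, and Psmb7 -0.0012 under centring. Between organs, Psmb9 became -0.0042 under quantile normalization, Psmb9 -0.033 and Psme1 -0.023 under centring, and with probe sets averaged Psmb8 became 0.037, Psmd11 0.027 and Psmd7 0.085. Without 1 array, the fit on pools gave Psmb7 -0.024 to 0.067 between populations, and between organs Psmb7 -0.054 to 0.038, Psmb8 -0.075 to 0.037, Psmb9 -0.048 to 0.089 and Psme1 -0.016 to 0.077. The 8-array fit gave Psmb7 -0.020 to 0.053 between populations, and between organs Psmb7 -0.044 to 0.034, Psmb8 -0.049 to 0.041 and Psmb9 -0.011 to 0.098.

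Psmb11 and Psma8, present on 0 and 2 arrays, were too dim for their differences to be read.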
